A study of Homo sapiens with 6 samples.

Results

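Transcripts of 9 enzymes of the tricarboxylic acid (TCA) cycle were followed in THP-1 cells, a human monocytic leukaemia line, with and without the ionophore monensin. The members were the genes whose symbol in the deposited count files is CS, IDH2, IDH3A, OGDH, DLST, SUCLG1, SUCLG2, FH or MDH2, that is 9 of 58395 listed genes. The study compared 3 samples of THP-1 cells with no exposure and 3 samples given 1 µM monensin for 16 h. All cells were kept in RPMI 1640 with fetal bovine serum and glutamine. No vehicle is named for the unexposed cells, and no label says that the 3 samples of a group were separate cultures, so the tests speak only of the variation among these 6 samples, part or all of which may be technical. The comparison asks how these messenger RNAs differ after exposure.

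The TCA cycle runs in the mitochondrial matrix and oxidises the acetyl group of acetyl-CoA to carbon dioxide, passing electrons to NAD and FAD for the respiratory chain. Its enzymes are encoded in the nucleus, made in the cytosol and imported. The cycle also supplies citrate, alpha-ketoglutarate, succinate and fumarate to biosynthesis and to enzymes that use them outside the mitochondrion, and in activated monocytes and macrophages it is known to be rerouted. Monensin is an ionophore that exchanges sodium for protons across membranes.

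Gene counts per library ran from 22975888 to 25710513. Messenger RNA encoded by the mitochondrial genome took 4.02% to 4.31% of gene counts in untreated and 0.177% to 0.210% in monensin libraries; with those genes left out, all 9 members were still lowered. Reads in no annotated gene were 8.61% to 8.99% of alignments without and 10.4% to 11.2% with monensin. All 8 monocyte and myeloid markers had counts in both groups, with a summed level of 1316 to 1374 CPM (counts scaled to library size) in untreated and 873 to 941 CPM in monensin libraries. LYZ went from 791 to 292 CPM on average and CD33 was also lowered, while SPI1 went from 285 to 360 CPM and FCGR1A, CD68 and CD14 were also raised, CD14 from 0.480 to 2.37 CPM. Of 11 markers of other cell types, CD3E, EPCAM, KRT18, COL1A2 and HBB were at 0 in every library. Apart from PECAM1, which monocytes also express, the others summed to 1.8 to 2.7 CPM in untreated and 3.3 to 4.0 CPM in monensin libraries. The part of these marker and read-share differences in the results below was not tested beyond that. CPM are counts scaled to an adjusted library size, so that they give relative levels, and a change in the total RNA per cell cannot be read from them.

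All 9 enzymes passed the filter on low counts, with 1080 to 9035 counts per library, and each was lower with monensin. By edgeR's quasi-likelihood test at a Benjamini-Hochberg adjusted p under 0.05, 9 of 9 fell and 0 rose, where 33.7% of the 16542 tested genes were lowered and 34.1% were raised. Among the 3868 genes with an average log2 CPM at least that of SUCLG2, the member lowest in CPM, 52.6% were lowered and 29.3% raised. For each of the 9, all monensin libraries lay below all untreated ones, as for 35.2% of tested genes (35.9% lay above). The median log2 fold change of the 9 was -0.47, against 0.02 over all tested genes, and the members ran from -0.84 (FH) to -0.13 (MDH2 and SUCLG1). None fell 2-fold, a size reached downward by 3.83% of tested genes, and none is among the 2410 genes of the authors' deposited table, whose smallest absolute log2 fold change is 1.00. Together the 9 genes held 1627 ± 22.9 CPM (mean ± SD, n = 3) in untreated and 1212 ± 39.0 CPM (n = 3) in monensin libraries. As a plain share of gene counts, without that adjustment, they held 0.158% and 0.125% on average.

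MDH2 and SUCLG1 changed least and depended on the processing. With libraries scaled by total counts alone, 7 of 9 were lowered, since MDH2 (adjusted p = 0.316) and SUCLG1 (adjusted p = 0.378) were not called. Both calls were also lost without monensin library 1. The other 7 members were lowered under each of the 15 alternatives tried.

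**Figure D1:**
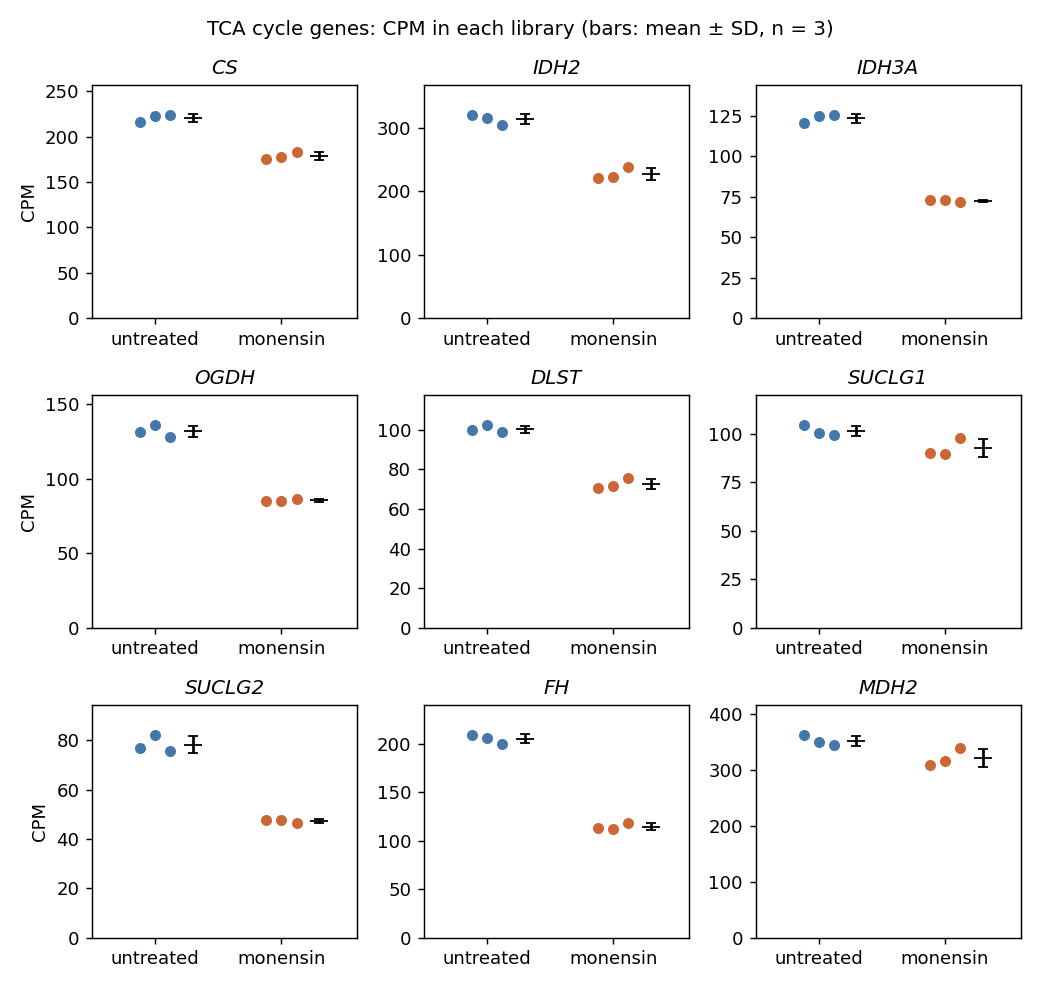
CPM (vertical axis, from 0) of the 9 TCA cycle genes in each of 3 untreated (blue) and 3 monensin (orange) libraries, with mean ± SD as black bars. The groups are far apart for FH (205 and 115 CPM on average) and close for MDH2 (352 and 321 CPM) and SUCLG1 (101 and 92.5 CPM).

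CS encodes citrate synthase, which joins acetyl-CoA to oxaloacetate and so feeds carbon into the cycle. It lies on chromosome 12 from 56271699 to 56300392 on GRCh38, minus strand. Its level was 216, 223 and 224 CPM in untreated and 175, 177 and 183 CPM in monensin libraries. The groups did not overlap, and the transcript fell by 0.31 in log2 units (SE 0.04, adjusted p = 5.97e-06), the smallest change among the 7 members called under every alternative.

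Isocitrate is oxidised by different enzymes, and 2 of the genes are members. IDH2 (chromosome 15, 90083045 to 90102504, minus strand) encodes the NADP-dependent mitochondrial enzyme, which can also run in the reductive direction. It stood at 319.7, 316 and 305 CPM without and 220.4, 223 and 238 CPM with monensin. IDH2 thus fell by 0.46 in log2 units (SE 0.04, adjusted p = 1.12e-07), and every monensin library lay below every untreated one. IDH3A (chromosome 15, 78131498 to 78171949, plus strand) encodes the catalytic subunit of the NAD-dependent enzyme, the form that works in the oxidative cycle. Its levels were 120.4, 125 and 125 CPM without and 72.8, 72.8 and 71.5 CPM with monensin. That is a fall of 0.77 in log2 units (SE 0.04, adjusted p = 4.27e-10). Of the annotated exonic bases of IDH3A, 38.9% are overlapped by exons of genes on the opposite strand, chiefly ACSBG1, whose own counts were between 1 and 18 in each library; whether the counting used strand is not stated. IDH2-DT, a divergent RNA gene beside IDH2, had 0 or 1 count.

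The alpha-ketoglutarate dehydrogenase complex turns alpha-ketoglutarate into succinyl-CoA. OGDH (chromosome 7, 44606572 to 44709066, plus strand) encodes its thiamine-dependent dehydrogenase, the component that binds the substrate. OGDH was at 131, 136 and 128 CPM in untreated and 85.2, 85.1 and 86.7 CPM in monensin libraries. It fell by 0.62 in log2 units (SE 0.04, adjusted p = 4.89e-09). DLST (chromosome 14, 74881891 to 74903745, plus strand) encodes the lipoate-bearing succinyltransferase that forms the core of the complex. It had 99.8, 102 and 98.9 CPM against 70.6, 71.5 and 75.5 CPM and fell by 0.47 (SE 0.05, adjusted p = 2.5e-07). Neither gene's groups overlapped. The processed pseudogene DLSTP1 had 5 to 11 counts per library, against 1763 to 2488 for DLST.

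Succinyl-CoA ligase makes the nucleoside triphosphate of the cycle, and its subunits differed in size of change. SUCLG1 (chromosome 2, 84423523 to 84460045, minus strand) encodes the alpha subunit shared by both forms of the enzyme, and SUCLG2 (chromosome 3, 67360460 to 67654614, minus strand) the beta subunit of the GTP-forming one. SUCLG1 was at 104, 100.3 and 99.4 CPM in untreated and 90.1, 89.5 and 97.9 CPM in monensin libraries. The highest monensin library lay just under the lowest untreated one, and the log2 fold change was -0.13 (SE 0.05, adjusted p = 0.0236). After correction for GC content and length it was 0.06 (adjusted p = 0.252), and the call was also lost without untreated library 1, monensin library 1 or monensin library 2 (adjusted p = 0.0598, 0.0934 and 0.0925). That correction, here and below, also takes out any difference between the groups that itself follows GC content or length. SUCLG2 went from 76.8, 82.1 and 75.7 CPM to 47.7, 47.8 and 46.3 CPM. It fell by 0.73 in log2 units (SE 0.05, adjusted p = 4.19e-09). Its pseudogene SUCLG2P2 had 4 to 19 counts per library, SUCLG2P4 had 0, and SUCLG2-AS1, an RNA gene named as its antisense partner, 2 to 6.

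FH encodes fumarase, which hydrates fumarate to malate and whose loss is known to let fumarate accumulate. The gene lies on chromosome 1 from 241497603 to 241519761, minus strand. FH was at 209, 207 and 200.1 CPM in untreated and 113, 112 and 118 CPM in monensin libraries. This was the largest fall among the 9, with a log2 fold change of -0.84 (SE 0.04, edgeR adjusted p = 1.13e-10). In linear terms FH fell by 44.2%, and its pseudogene FHP1 had 0 to 3 counts. MDH2, mitochondrial malate dehydrogenase, closes the cycle by making oxaloacetate, and also serves the malate-aspartate shuttle. It lies on chromosome 7 from 76048051 to 76067508, plus strand. MDH2 had 362, 349 and 344 CPM without and 309, 316 and 338 CPM with monensin. Again the highest monensin library lay just under the lowest untreated one, and the log2 fold change was -0.13 (SE 0.04, adjusted p = 0.0135). Without monensin library 1 it was not called (adjusted p = 0.0771).

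For the cycle 8 more genes that are not members were examined, and subunits of single enzymes differed there too. Of these, 5 fell and 0 rose, where 33.7% of all tested genes were lowered and 34.1% raised. Among genes with an average log2 CPM at least that of SUCLG2, 52.6% were lowered and 29.3% raised. The median log2 fold change of the 8 was -0.28. DLD, the dihydrolipoamide dehydrogenase shared by several complexes, fell by 0.54 (SE 0.04), between OGDH and DLST. After correction for GC content and length it fell less than both (log2 fold change -0.32, against -0.77 for OGDH and -0.53 for DLST). SUCLA2, the beta subunit of the ATP-forming succinyl-CoA ligase, fell by 0.61 (SE 0.05). IDH3B, a regulatory subunit of the NAD-dependent isocitrate dehydrogenase, fell by 0.28 (SE 0.05).

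In contrast, the other regulatory subunit, IDH3G, had 70.8 ± 2.40 CPM in untreated and 70.6 ± 4.27 CPM in monensin libraries (n = 3 each, log2 fold change -0.004 with SE 0.05, adjusted p = 0.951). After correction for GC content and length, which also takes out group differences that follow them, IDH3G was lowered (log2 fold change -0.28, adjusted p = 8.07e-06). Succinate dehydrogenase, the enzyme between succinyl-CoA ligase and fumarase, was uneven too. SDHA, its flavoprotein, fell by 0.83 (SE 0.04) and SDHD, a membrane anchor, by 0.27 (SE 0.06). SDHB, the iron-sulphur subunit, and SDHC, the other anchor, had log2 fold changes of 0.08 (SE 0.05, adjusted p = 0.15) and 0.05 (SE 0.05, adjusted p = 0.330). Under total counts both were raised (adjusted p = 0.00602 for SDHB and 0.0168 for SDHC), so that 2 of the 8 genes rose there. SDHC was also raised after correction for GC content and length (log2 fold change 0.26, adjusted p = 0.000132).

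**Figure D2:**
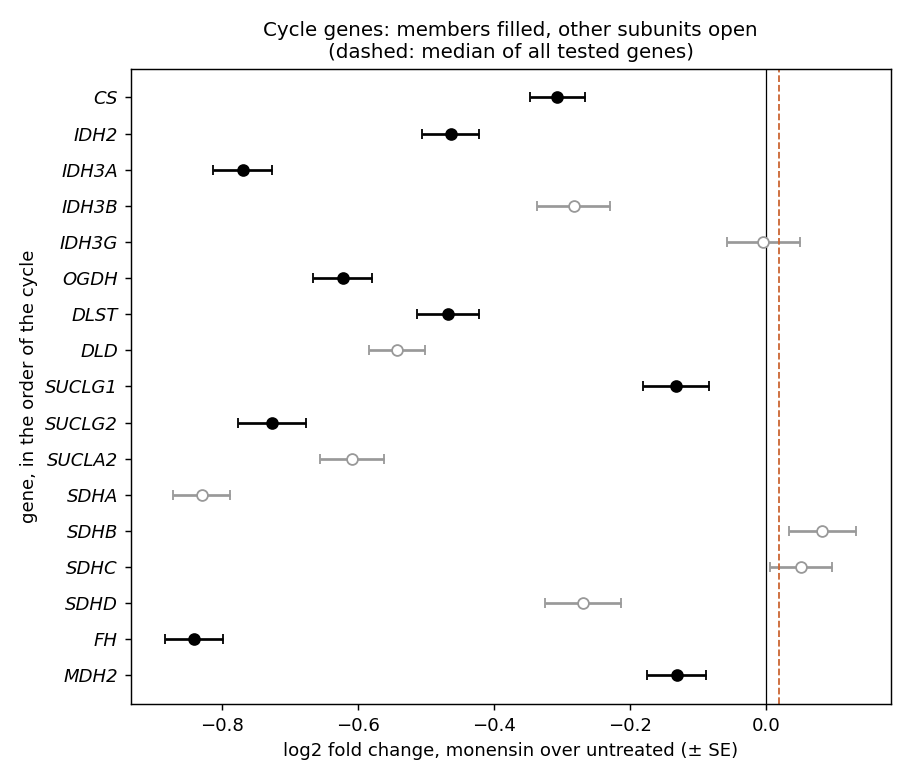
Log2 fold change, monensin over untreated (horizontal axis, ± SE), of 17 genes of the cycle from CS to MDH2 (vertical axis); filled points are the 9 members, open points the other subunits, and the dashed line is the median of all tested genes. FH, SDHA and IDH3A lie furthest to the left, while IDH3G, SDHB and SDHC lie near 0.

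Ratios of counts within a library, which do not depend on how libraries are scaled, showed how the proportions between enzymes differed. With 3 libraries against 3, a two-sided exact permutation test cannot give a p below 0.1, and that value was reached for each of the 10 pairs compared (adjusted p = 0.1 over the 10). How often other gene pairs reach it was not computed. Of single tested genes, 35.2% lay wholly lower and 35.9% wholly higher with monensin. For SUCLG2 over SUCLG1, beta against alpha subunit, the ratio was 0.736, 0.818 and 0.761 in untreated and 0.529, 0.534 and 0.473 in monensin libraries, a log2 difference of -0.59 (SE 0.07). Between the beta subunits, SUCLG2 over SUCLA2 was 1.01 ± 0.0425 and 0.927 ± 0.0059 (n = 3 each), a log2 difference of -0.12 (SE 0.04). OGDH over DLST was 1.31 ± 0.0165 and 1.18 ± 0.0301, a log2 difference of -0.15 (SE 0.02). FH over MDH2, consecutive steps, gave 0.584 ± 0.0070 and 0.357 ± 0.0082, and CS over MDH2 0.628 ± 0.0284 and 0.556 ± 0.0128. IDH2 over IDH3A was 2.54 ± 0.111 and 3.14 ± 0.169, a log2 difference of 0.31 (SE 0.06) that changed sign, to -0.04, after correction for GC content and length. Within the NAD-dependent enzyme, IDH3A over IDH3G was 1.75 ± 0.0948 and 1.03 ± 0.0709, and IDH3A over IDH3B was 2.02 ± 0.121 and 1.44 ± 0.0816; these 2 pairs were chosen after their values were seen. The same correction, applied to the ratios after the data were seen, took IDH3A over IDH3G from -0.76 to -0.36 in log2 units, IDH3A over IDH3B from -0.49 to -0.16 and CS over MDH2 from -0.17 to -0.07. It took OGDH over DLST to -0.24, SUCLG2 over SUCLA2 to -0.21 and MDH2 over MDH1 from -0.31 to -0.46.

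Mitochondrial enzymes were also set against their cytosolic counterparts. IDH1, the cytosolic NADP-dependent isocitrate dehydrogenase, rose from 157 ± 2.52 to 237 ± 7.15 CPM (n = 3 each, log2 fold change 0.59, SE 0.04, adjusted p = 4.59e-09). The count ratio of IDH2 over IDH1 was accordingly 2.05, 1.97 and 1.96 in untreated and 0.922, 0.919 and 1.04 in monensin libraries, a log2 difference of -1.05 (SE 0.06). MDH1, the cytosolic malate dehydrogenase, rose by 0.17 in log2 units (SE 0.04, adjusted p = 0.00144). MDH2 over MDH1 was 1.31 ± 0.0428 without and 1.06 ± 0.0350 with monensin. ACO1, cytosolic aconitase, fell by 0.18 (SE 0.06, adjusted p = 0.0151), a call lost under total counts (adjusted p = 0.197), after correction for GC content and length (adjusted p = 0.0939), and without untreated library 2 or monensin library 3 (adjusted p = 0.0655 and 0.0503).

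**Figure D3:**
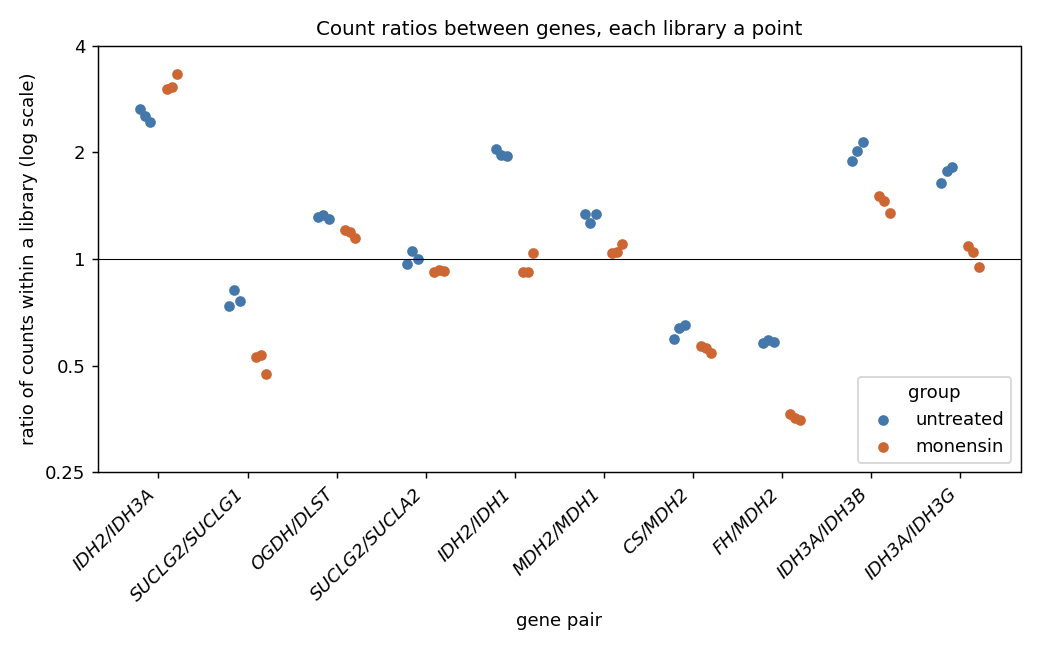
Ratio of counts of 2 genes within each library (vertical axis, log scale) for 10 gene pairs (horizontal axis), untreated in blue and monensin in orange. IDH2/IDH1 lies near 2 in untreated and near 1 in monensin libraries, and FH/MDH2 and SUCLG2/SUCLG1 are lower with monensin in each library.

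Levels of different genes were compared as CPM per kilobase of annotated exons. In untreated cells IDH2 was highest, at 111 ± 2.71 CPM per kb (mean ± SD, n = 3), followed by MDH2 at 96.6 ± 2.59 and FH at 95.8 ± 2.19, whose libraries overlapped. CS came next at 34.5 ± 0.665, and OGDH, SUCLG2, SUCLG1 and DLST lay between 25.3 and 22.0 CPM per kb, OGDH and SUCLG2 with overlapping libraries. IDH3A was lowest at 18.1 ± 0.387. With monensin MDH2 stood first at 88.2 ± 4.21 CPM per kb, above IDH2 at 80.7 ± 3.49 and FH at 53.5 ± 1.54. SUCLG1 moved from rank 7 to rank 5 (21.6 ± 1.09), SUCLG2 from rank 6 to rank 8 (15.3 ± 0.276), and IDH3A remained last (10.6 ± 0.11).

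These levels depend on the length used. Per kilobase of the principal transcript, an alternative chosen after seeing the data, MDH2 was first in both groups, ahead of IDH2 (159 and 116 CPM per kb untreated), whose untreated libraries overlapped those of FH (114 CPM per kb), and SUCLG1 reached 68.7 and CS 74.2 CPM per kb in untreated libraries. IDH3A was lowest in both groups on either scale. Its rank may depend on the counting, since opposite-strand exons overlap 38.9% of its exonic bases and the strand setting is not stated.

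The promoter of a gene is the stretch of DNA before its start site where transcription factors bind. RefSeq promoter windows of 300 bases (250 before to 50 after the start, GRCh38.p14) were found for 8 of the 9 members, all but OGDH. These windows were searched on both strands for 9 short motifs, as a description. Whether a motif bears on the changes was not tested. The SP1 motif GGGCGG occurred in 5 of 8 windows (44.9% of 34796 windows), the CCAAT box CCAAT in 3 (34.6%), the ETS motif CCGGAAG in 2, DLST and MDH2 (10.2%), and the YY1 motif AAGATGGCG in 1, SUCLG2 (1.76%). None held the letters searched for NRF1 (GCGCATGC, 3.00% of windows), ERR (CAAGGTCA, 1.29%), CREB (TGACGTCA, 1.84%), the E-box (CACGTG, 7.21%) or the ATF4 element (TGATGNAA, 3.63%). The windows of IDH2, SUCLG1 and IDH3A lie 1883, 765 and 17864 bp inside the outermost annotated start of the gene, so that other start sites were not covered.

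Shown here are the upstream parts outside annotated exons for FH, IDH3A and CS. Without correction for GC content and length, FH and IDH3A were the members that fell most, and CS fell less. Each part is given 5′ to 3′ on the strand of the gene with matches in capitals (GGGCGG or its complement CCGCCC for SP1, CCAAT or its complement ATTGG for the CCAAT box). FH is taken from chr1:241519762-241520005, IDH3A from chr15:78149112-78149320 and CS from chr12:56300393-56300580.
FH: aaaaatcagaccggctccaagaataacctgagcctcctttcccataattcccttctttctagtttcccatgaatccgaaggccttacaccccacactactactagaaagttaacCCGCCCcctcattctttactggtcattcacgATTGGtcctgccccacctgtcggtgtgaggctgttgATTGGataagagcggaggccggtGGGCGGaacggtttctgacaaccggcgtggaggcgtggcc
IDH3A: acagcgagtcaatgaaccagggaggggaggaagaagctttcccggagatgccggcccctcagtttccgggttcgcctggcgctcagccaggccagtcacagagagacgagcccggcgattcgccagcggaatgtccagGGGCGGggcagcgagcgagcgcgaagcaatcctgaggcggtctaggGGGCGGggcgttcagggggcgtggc
CS: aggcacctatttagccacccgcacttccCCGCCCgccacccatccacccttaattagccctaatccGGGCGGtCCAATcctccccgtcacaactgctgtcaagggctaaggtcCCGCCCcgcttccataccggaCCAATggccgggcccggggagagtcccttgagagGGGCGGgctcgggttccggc
The CS and FH stretches hold both motifs, and that of IDH3A the SP1 motif alone.

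The pyruvate dehydrogenase complex feeds the cycle with acetyl-CoA. Among 11 genes of the complex and its regulators, 7 fell, PDK2 and PDP2 rose, and the median log2 fold change was -0.34. The shares to set beside this count and those of the lists that follow are 33.7% lowered and 34.1% raised of all tested genes. DLAT, the lipoate-bearing counterpart of DLST in that complex, fell by 0.85 (SE 0.05) from 93.6 ± 3.95 to 51.8 ± 1.61 CPM. PDPR, which regulates the activating phosphatase, fell by 0.43 (SE 0.05). The inhibitory kinases went apart, PDK3 with a fall of 0.94 (SE 0.11) and PDK2 with a rise of 0.45 (SE 0.07).

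Lipoate, the cofactor that DLST carries, is made with the help of LIAS and passed on by LIPT1. Among 9 tested genes for lipoate and the sister complexes of alpha-ketoglutarate dehydrogenase, 5 fell and LIPT1 rose, with a median of -0.18; under total counts 3 fell. LIAS fell by 0.32 (SE 0.08), but after correction for GC content and length its log2 fold change was -0.05 (adjusted p = 0.607). LIPT1 rose by 0.34 (SE 0.10) and was not called without monensin library 1 (adjusted p = 0.0573). OGDHL, a paralogue of OGDH, fell by 0.58 (SE 0.14) from 5.17 ± 0.283 to 3.48 ± 0.709 CPM, and BCKDHB, of the branched-chain complex, by 0.39 (SE 0.06). BCKDHA had 1 to 3 counts per library and was not tested. Overlap with exons of other genes was examined only for the 9 members, so a low count need not mean low expression.

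Enzymes by which carbon enters or leaves the cycle moved both ways, with 8 lowered and 5 raised of 13 tested and a median of -0.22. Over all tested genes 33.7% were lowered and 34.1% raised. PCK2, the mitochondrial enzyme that draws oxaloacetate off as phosphoenolpyruvate, rose from 67.9 ± 1.74 to 121 ± 5.08 CPM (log2 fold change 0.83, SE 0.05). MCEE and PCCA, of the route from propionyl-CoA to succinyl-CoA, rose by 0.94 (SE 0.09) and 0.79 (SE 0.07). On the same route PCCB, the partner subunit of PCCA, fell by 0.61 (SE 0.05) and MMUT by 0.22 (SE 0.06), the latter not called under total counts (adjusted p = 0.0937) or after correction for GC content and length (adjusted p = 0.804). PC and GPT2 also rose. GOT2, the mitochondrial aspartate aminotransferase, fell by 0.71 (SE 0.05) from 92.3 ± 0.618 to 56.3 ± 1.46 CPM. GLS2 had 1 count over the 6 libraries and was not tested.

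Of 7 cytosolic counterparts 5 rose, with a median of 0.59, while ACO1 and ACLY fell. The 5 include GPT, which had only 6 to 21 counts per library (edgeR adjusted p = 0.0183). Only 4 rose under the stricter filter, DESeq2, correction for GC content and length, or an adjusted p under 0.01. The same held without untreated library 1, untreated library 2 or monensin library 1. ME1, malic enzyme, rose by 1.34 (SE 0.08) and GOT1, cytosolic aspartate aminotransferase, by 1.24 (SE 0.07); the authors' deposited table gives 1.315 and 1.222 for them. GOT1 went from 16.0 ± 1.502 to 37.8 ± 0.304 CPM. ACLY, which splits exported citrate, fell by 0.45 (SE 0.04).

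Of 7 carriers of cycle intermediates and pyruvate, 5 fell and MPC1 rose, with a median of -0.36. SLC25A10, the dicarboxylate carrier, fell by 0.65 (SE 0.08), SLC25A12 and SLC25A13, the aspartate-glutamate carriers, by 0.48 (SE 0.06) and 0.36 (SE 0.06), and MPC2 by 0.40 (SE 0.06). Its partner in the pyruvate carrier, MPC1, rose by 0.31 (SE 0.05). Both tested genes of the list for side metabolites were raised. D2HGDH, which oxidises D-hydroxyglutarate back to alpha-ketoglutarate, rose by 0.45 (SE 0.10). SIRT3, a mitochondrial deacetylase, rose by 0.33 (SE 0.08), a call lost after correction for GC content and length (adjusted p = 0.0790). ACOD1, which makes itaconate from a cycle intermediate, had 3 counts over the 6 libraries and was not tested.

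**Figure D4:**
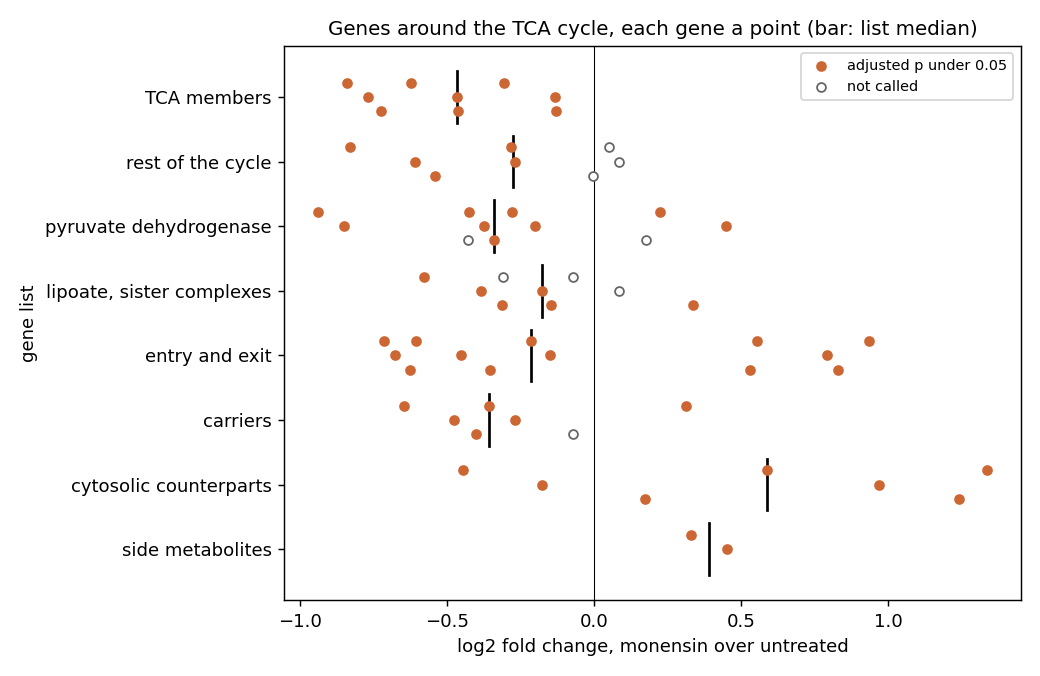
Log2 fold change, monensin over untreated (horizontal axis), of each tested gene in 8 lists around the cycle (vertical axis); orange points passed the test at an adjusted p under 0.05, open points did not, and black bars are list medians. The list medians are -0.47 for the 9 members, -0.28 for the other cycle genes and 0.59 for the cytosolic counterparts.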

How the data were processed

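The authors deposited a file of unnormalized gene counts for each of 6 libraries. The submitters' processing notes name HISAT2 2.1.0 and HTSeq 0.11.1, with Trimmomatic 038, bcl2fastq and DESeq2 1.22.2, on build hg38 (GRCh38). Per the labels' protocols the libraries were directional, with single reads of 75 nt; annotation release and strand setting of the counting: not given in the sources used here. A further table deposited by the authors holds log2 fold changes without errors. The 5 tally lines, 19.1% to 19.8% of alignments in untreated and 21.2% to 22.0% in monensin libraries, were left out. The members and lists were chosen with earlier results of these data known.

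The test was that of edgeR 4.0.16 under R 4.3.3 (quasi-likelihood F test, default filter by group, TMM scaling, treatment as the term), which left 16542 genes. CPM use TMM-adjusted library sizes. Standard errors come from the coefficient and its F statistic. On simulated counts of monensin against untreated (15823 genes, 200 changed) 58% of 50 simulated 1.25-fold changes and 98% of 50 simulated 2-fold changes were recovered by edgeR, with 12 false calls. Positions and lengths are from GENCODE 29, promoter sequences from RefSeq (GRCh38.p14). All 88 listed genes were matched, MMUT under the older symbol MUT; other genes of these pathways are not reported here. Named beside the members were up to 4 genes per list with the largest absolute change at an average log2 CPM of at least 2, the cycle's other subunits, isozymes, pseudogenes and antisense genes. The other genes named were so because a count or a direction turned on them, after their values were seen. Alternatives were RLE factors, total counts, no mitochondrial genes, no filter, a stricter filter, a replicate block, DESeq2 1.42.0, an adjusted p under 0.01, correction for smooth trends on GC content and length, and each library left out. No replicate pair was identical, and chi-square per degree of freedom between replicates ran from 1.84 to 4.68.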

Additional observations from a re-analysis of the deposited data

How the results depend on the processing

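Of the 9 members, CS, IDH2, IDH3A, OGDH, DLST, SUCLG2 and FH remained lowered under each of 15 alternatives. SUCLG1 changed sign after correction for GC content and length (log2 fold change 0.0638). With an adjusted p under 0.01, SUCLG1 and MDH2 were not called. IDH3G changed sign under total counts (0.0814), the stricter filter (0.0138) and when untreated library 1 (0.0163) or monensin library 1 (0.0335) was left out; leaving out each library gave -0.0532 to 0.0335. Under total counts, where the median of all genes shifted by 0.09 and 6582 genes were raised against 4605 lowered, 2 of the other cycle genes rose, 3 lipoate genes fell and 1 cytosolic counterpart fell. After correction for GC content and length, 1 of the other cycle genes (SDHC), 2 lipoate genes and 1 gene of side metabolites rose, and 1 cytosolic counterpart fell, as it did at an adjusted p under 0.01. Leaving out each library gave 0 to 1 raised lipoate genes, 1 to 2 lowered cytosolic counterparts and 4 to 5 raised ones. The cause was not tested.

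Correlations of deviations between same-numbered libraries were -0.12, 0.14 and 0.04 over 16542 genes, and between differently numbered ones -0.20 to 0.16. Deviations sum to 0 within a group of 3, so these values cannot decide whether replicate numbers pair the libraries. With the replicate block 5515 genes were raised and 5435 lowered, and 9 of 9 members were lowered. The groups did not overlap for any of the 10 ratios between genes, so leaving out a library could not change the sign of a difference. The share of all gene pairs without overlap was not computed. Adding 1 count changed no sign either, and at 1080 or more counts per gene it could barely move a ratio. After correction for GC content and length the difference for IDH2 over IDH3A changed sign (log2 difference -0.0386 in place of 0.305). In the 100 bases nearest the start site the CCAAT box was found in 1 of 8 windows in place of 3, the ETS motif in 1 in place of 2 and the SP1 motif in 4 in place of 5. At these depths even SUCLG2, the member with the lowest CPM, had at least 1080 counts per library.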
